A study of Mus musculus with 28 samples.

Results

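Ptprq, Myo6, Rdx, Clic5 and Tprn encode proteins that lie at the base of the stereocilia of hair cells (HCs), and these 5 genes, of 19421 in the deposited expression table, are described here across 7 dox-inducible mouse embryonic stem cell (mESC) lines. They were taken as the rows of the table with these names. Ptprq was chosen by its Dox response in these same libraries, which was high with Pou4f3 and near 0 when Gfi1, Pou4f3 and Atoh1 were induced together, so its values are given as a description with no test. The other 4 genes, called partners below, were taken for where their proteins lie in the bundle, and the question was whether they followed the pattern of Ptprq.

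Stereocilia are actin-filled projections that narrow to a thin taper where they enter the cell, and sound or head movement pivots them at this point. Ptprq is a receptor-type phosphatase with many fibronectin repeats whose extracellular part forms the shaft connectors close to the taper. Myo6, a myosin that walks towards the pointed end of actin filaments, radixin (Rdx), which links actin to the membrane, the chloride channel-like protein Clic5 and taperin (Tprn) are concentrated in the same zone. Loss of any of the 5 genes causes deafness or impaired hearing in mice.

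The lines were made from A2Lox mESCs and carried, under a tetracycline-responsive element, Atoh1 alone (iAtoh1), Gfi1 alone (iGfi1), Pou4f3 alone (iPou4f3), Gfi1 with Atoh1 (iG+A), Gfi1 with Pou4f3 (iG+P), Pou4f3 with Atoh1 (iP+A) or all of them (iGPA), with self-cleaving peptides between the factors and an mVenus reporter at the end. Atoh1 carried a Flag tag and Pou4f3 a Myc tag. Embryoid bodies (EBs) were grown to day 6. Dox libraries came from mVenus+ cells sorted after 48 h with 2 µg/ml doxycycline, and No Dox libraries from whole untreated EBs of the same line. There were 2 libraries per group, from different clones of a line according to the series record, and 28 libraries in all. None of the 7 lines carried the reporter without a transcription factor, so effects of the factors, of Dox and of sorting cannot be told apart within a line, and in such bulk samples fewer cells of a type and less RNA per cell cannot be told apart either.

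Estimated depth was 30.3 to 48.0 M reads per library and replicates correlated at 0.980 to 0.991 across genes. Levels are given in normalized counts, for which the deposited values were read as log2 of the count plus 1, a scale inferred from the values themselves. Each line showed its own transgenes with Dox, with Atoh1 at 12816 to 21242, Gfi1 at 8119 to 12487 and Pou4f3 at 4694 to 19883 normalized counts in the lines that carried them. Reads from a transgene and from the endogenous gene cannot be told apart. The defining markers of HCs were present in part. Lhx3 was at 0 in 4 of 14 untreated and 1 of 14 Dox libraries, and Ocm had too few counts to be tested. Genes were tested when they reached 10 normalized counts in 2 or more libraries. Of 7 tested HC markers, 2 reached this only with the Dox libraries, so their values are given without a test. Lhx3 had 0.501 and 1.40 normalized counts without Dox and 337 and 497 with Dox in iGPA, and Slc17a8, the vesicular glutamate transporter of inner HCs, had 10.1 and 3.08 against 748 and 926 in iG+P. Of the other 5, 2 were up in iGPA, Espn and the synaptic gene Otof (log2 fold change 5.07, adjusted p = 1.39e-07, limma with Benjamini-Hochberg adjustment over all genes, as in every adjusted p below), against 7.56% of all genes that reached the limit in untreated libraries alone. Of these markers, Espn, Myo7a, Cdh23 and Tmc1 are bundle genes themselves.

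The members lie far apart or on different chromosomes. In NCBIM37 (mm9), the build of the transcripts used for counting, Ptprq (Entrez 237523) spans chr10:106954416-107157083 on the minus strand, Myo6 (17920) chr9:80012838-80159536 and Rdx (19684) chr9:51855255-51896842, both on the plus strand, Clic5 (224796) chr17:44325521-44417117 (plus) and Tprn (97031) chr2:25118118-25125406 (plus). None overlaps another protein-coding gene in GENCODE M1. The 250 bases before the annotated 5′ ends of Ptprq and Clic5, the members with the widest ranges of level over the Dox libraries, are shown 5′ to 3′ on the gene's strand with each CG dinucleotide in capitals.

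Ptprq, chr10:107157084-107157333 (minus): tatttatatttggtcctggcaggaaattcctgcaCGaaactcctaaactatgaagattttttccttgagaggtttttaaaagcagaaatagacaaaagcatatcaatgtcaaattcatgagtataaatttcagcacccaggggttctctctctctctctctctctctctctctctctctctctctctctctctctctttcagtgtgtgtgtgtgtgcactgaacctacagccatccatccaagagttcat

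Clic5, chr17:44325271-44325520 (plus): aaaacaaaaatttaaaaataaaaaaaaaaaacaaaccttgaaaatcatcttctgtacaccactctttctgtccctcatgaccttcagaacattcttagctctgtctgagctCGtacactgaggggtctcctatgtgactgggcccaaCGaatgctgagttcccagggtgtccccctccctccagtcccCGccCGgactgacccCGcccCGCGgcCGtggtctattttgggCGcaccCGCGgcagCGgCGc

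The Ptprq window held 1 CG, while the Clic5 window held 13. The same window held 18 in Myo6, 9 in Tprn and 3 in Rdx. Over 22380 promoters of protein-coding genes the median was 8, and 16.6% had at most 1. A search of both strands for the E-box letters CAGCTG, the Pou4f letters ATTAAT and the Gfi1 letters AATCAC found CAGCTG in the window of Rdx, 94 bases before the 5′ end, and no other match in the windows of the 5 members. These letters occur in 11.8%, 4.26% and 9.15% of all promoters of this length, and a match or its absence is a description of the letters in this window and not of binding. A second RefSeq window of Rdx shared no 30-base run with the window used, and for Ptprq there was no RefSeq window to compare.

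The study also measured Myo6 by quantitative PCR as one of its HC markers, and its primers show which part of the transcript was followed. They are printed with capitals for the bases that lie in the later of the exons spanned.

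Myo6 forward: gagaggcggatGAAACTTGAGA

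Myo6 reverse: cttcggagtgccatgtcacc

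The forward primer spans the junction of exons 26 and 27 of ENSMUST00000035889.8 (chr9:80136013-80137683) and the reverse primer lies within exon 28 (chr9:80140305-80140324), both in the coding part. Both match 6 Myo6 transcripts and no transcript of another gene. Only their sequences are used here, and the values below are from RNA-seq.

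Before induction the members differed widely in level. Per kb of annotated exon, the mean normalized count over the 14 untreated libraries was 3677 ± 390.2 (SD, n = 14) for Rdx, 249 ± 43.0 for Myo6, 113 ± 21.9 for Tprn, 15.1 ± 5.88 for Clic5 and 1.65 ± 0.580 for Ptprq. Rdx and Myo6 were thus abundant in untreated EBs and Ptprq was close to the lower limit of the kept genes.

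**Figure D1:**
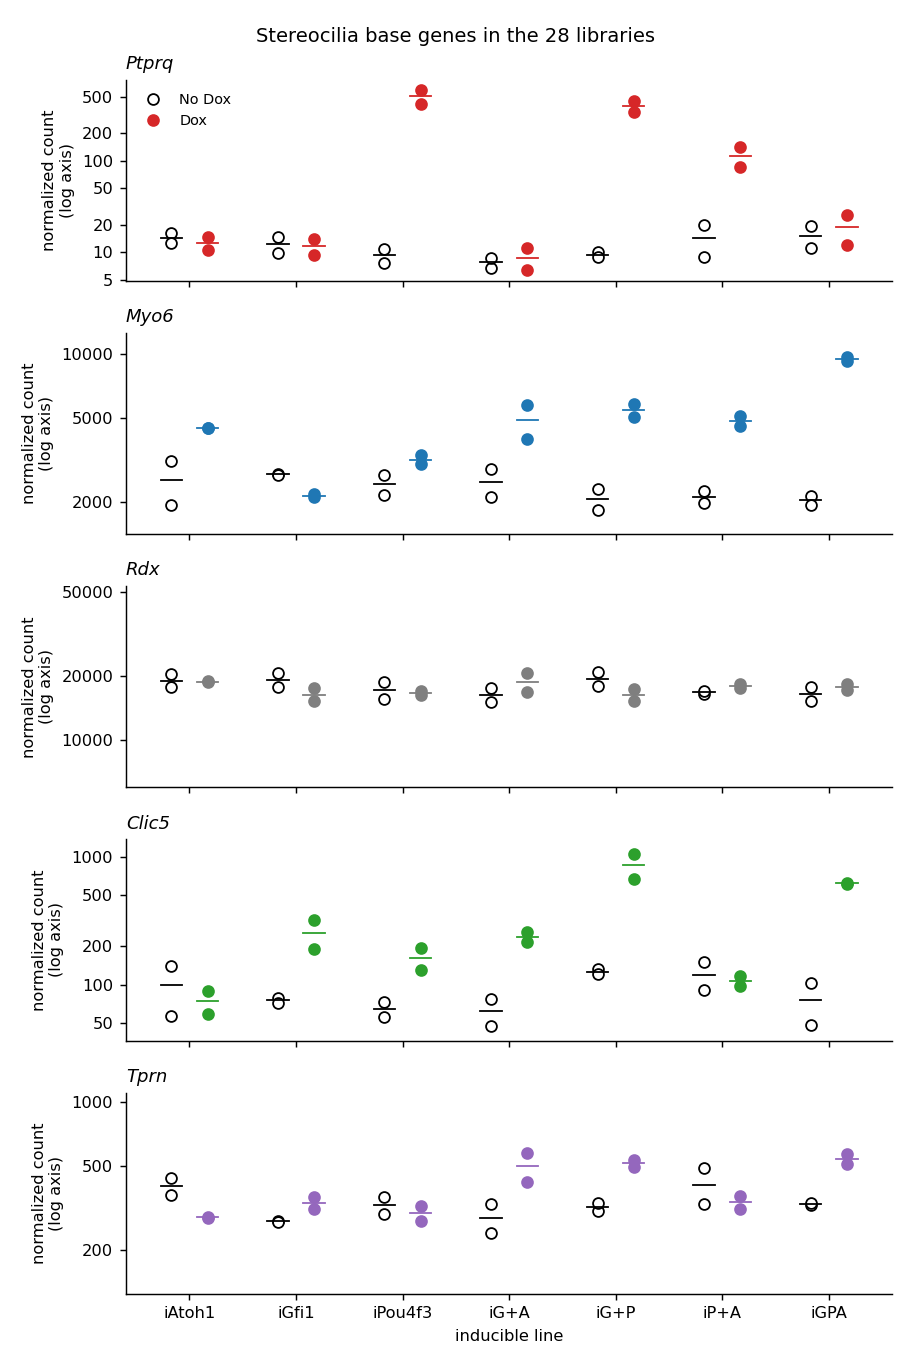
Normalized counts (log axes) of the 5 stereocilia base genes in the 28 libraries, by line, with No Dox libraries as open and Dox libraries as filled circles and a short bar at each mean of 2 libraries. Ptprq reached 85.7 to 595 in iPou4f3, iG+P and iP+A Dox libraries and 6.33 to 25.6 in the Dox libraries of the other lines, whereas Clic5 and Myo6 were high in iGPA.

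With Dox, Ptprq was higher in the lines that carried Pou4f3 except the one that carried all 3 factors. In iPou4f3 it had 11.0 and 7.62 normalized counts without Dox and 595 and 423 with Dox, a log2 fold change of 5.63 ± 0.447 (SE). In iG+P it had 9.96 and 8.79 against 345 and 457, a log2 fold change of 5.26. The ratio of the means was 54.7 in iPou4f3 and 42.8 in iG+P, and these 4 Dox libraries lay above every other library.

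In iP+A the difference was smaller, with 19.8 and 8.97 without Dox and 85.7 and 144 with Dox, a log2 fold change of 2.96 and a ratio of the means of 7.96. Without No Dox replicate 1 this value was 3.49 and without No Dox replicate 2 it was 2.43, so the single untreated libraries of iP+A set part of its size. In iGPA Ptprq had 11.1 and 19.2 normalized counts without Dox and 12.0 and 25.6 with Dox, a log2 fold change of 0.25. The iGPA groups overlapped.

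The lines without Pou4f3 gave overlapping groups as well. Ptprq had 16.2 and 12.7 against 10.7 and 14.8 in iAtoh1, which is a log2 fold change of -0.18. It had 14.6 and 9.75 against 9.45 and 14.1 in iGfi1 (-0.05), and 6.79 and 8.74 against 11.0 and 6.33 in iG+A (0.11). By size of log2 fold change Ptprq stood at position 13 from the top of 16837 genes in iPou4f3, 46 in iG+P, 5796 in iGPA and 302 in iP+A. These positions use the values by which Ptprq was chosen.

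Ordered by Dox level, Ptprq was highest in iPou4f3 (mean 509 ± 122 SD, n = 2), then iG+P (401 ± 78.9), iP+A (115 ± 40.9) and iGPA (18.8 ± 9.63). The libraries of iPou4f3 and iG+P overlapped, those of iG+P and iP+A and those of iP+A and iGPA did not, and iGPA, iAtoh1, iGfi1 and iG+A overlapped each with the next. The order did not follow the level of Pou4f3. Pou4f3 had 4694 and 5381 normalized counts in the Dox libraries of iPou4f3, 12878 and 10868 in iP+A, 13037 and 15115 in iGPA and 17590 and 19883 in iG+P, so that the line with the lowest Pou4f3 of these had the highest mean Ptprq, and iGPA, with the lowest Ptprq of these, had more Pou4f3 than iPou4f3.

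**Figure D2:**
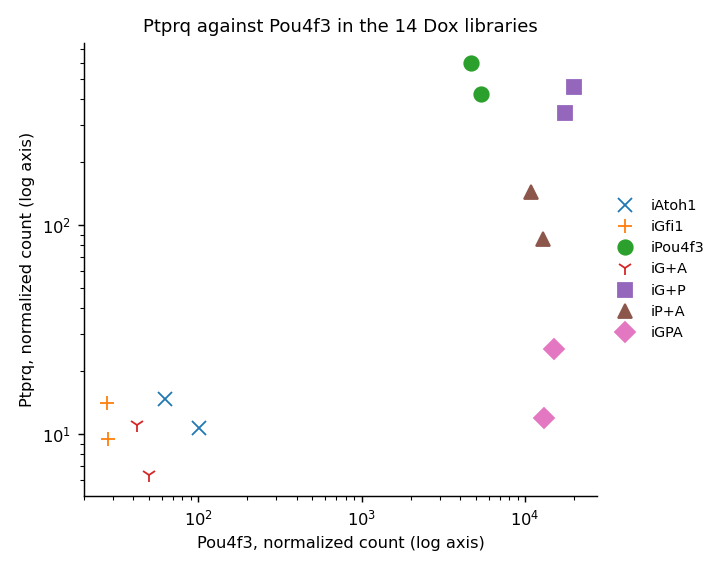
Ptprq against Pou4f3, both in normalized counts on log axes, in the 14 Dox libraries, with a symbol for each line. The iGPA libraries had Pou4f3 at 13037 and 15115 and Ptprq at 12.0 and 25.6, far under the iPou4f3, iG+P and iP+A libraries, while the lines without a Pou4f3 transgene lie at the lower left.

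The partners were set against this pattern by their calls. A gene was called when its adjusted p was under 0.05 and its log2 fold change reached 1.5, and 79 of 16837 genes (0.469%) were up in iPou4f3 and not in iGPA, among the 248 up in iPou4f3. These counts over all genes include Ptprq. Of the 4 partners, 0 were of this kind, which at so small a share over all genes does not set them apart. With Dox, 0 of 4 partners were up in iPou4f3 (1.47% of all genes were), where 1, Clic5, had an unadjusted p under 0.05. In iGPA 2 of 4 were up, Myo6 and Clic5, against 8.65% of all genes.

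In the other lines 1 of 4 partners was up in iGfi1 (2.15% of all genes), in iG+A (7.35%) and in iG+P (5.16%), in each case Clic5. In iAtoh1 (2.89%) and iP+A (4.7%) 0 of 4 were up, with Myo6 at an unadjusted p under 0.05 in both. None of the 4 partners was called down in any line, where the share of all genes that were down was 0.606% in iPou4f3, 5.36% in iG+P, 2.58% in iP+A, 5.31% in iGPA, 4.95% in iG+A, 2.67% in iGfi1 and 2.52% in iAtoh1, and 1 partner, Tprn in iAtoh1, was lower at an unadjusted p under 0.05. The median log2 fold change of the 4 partners was 0.18 in iPou4f3 and 1.47 in iGPA, beside medians over all genes tested of -0.0047 and 0.0058.

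**Figure D3:**
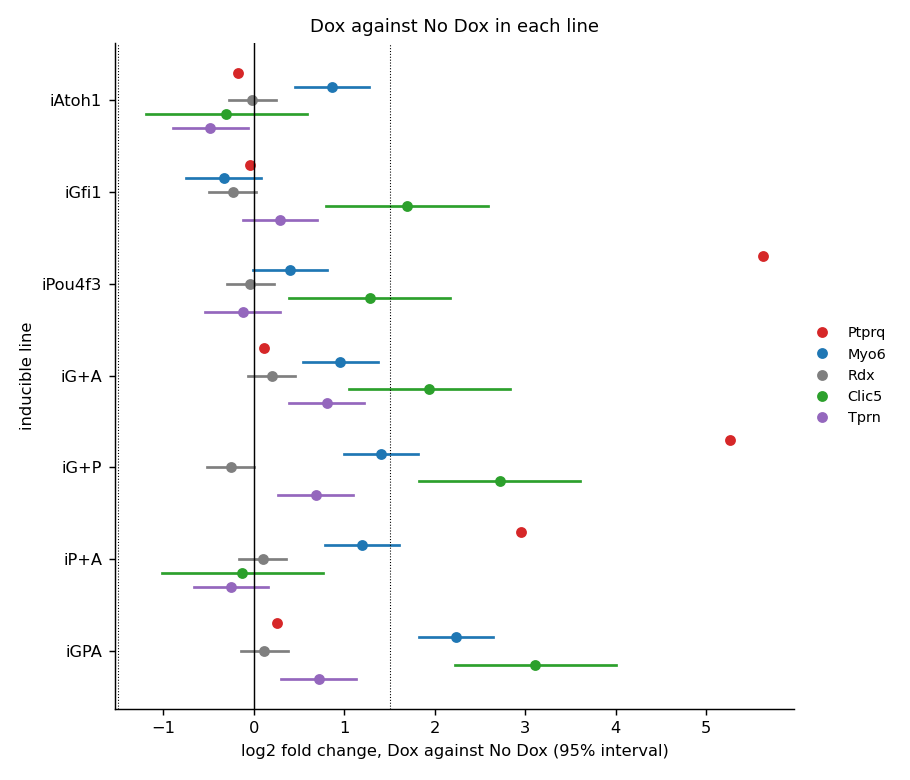
Log2 fold change of each member, Dox against No Dox, in each line (points), with 95% intervals for the 4 partners (lines), and dotted lines at 1.5 in both directions. Ptprq stands alone at 5.63 in iPou4f3, while in iGPA it lies at 0.25 with Clic5 at 3.11 and Myo6 at 2.23.

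Clic5, which is thought to act with radixin, taperin and Myo6 in holding the membrane to actin at the base, was up in all 4 lines that carried Gfi1. In iGPA it had 104 and 48.2 normalized counts without Dox and 628 and 612 with Dox, a log2 fold change of 3.11 ± 0.424 (adjusted p = 9.74e-06). In iG+P it had 133 and 120.2 against 1051 and 665, a log2 fold change of 2.72 (6.59e-05). The highest untreated library in either line was far below the lowest Dox library.

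In iG+A Clic5 had 47.6 and 77.3 normalized counts against 259 and 215, a log2 fold change of 1.94 (adjusted p = 0.00134). In iGfi1 it had 78.9 and 72.0 against 188 and 321, a log2 fold change of 1.69 (0.00664). The groups did not overlap in either line. The iGfi1 call was lost without No Dox replicate 2 (log2 fold change 1.63, adjusted p = 0.051) and without Dox replicate 2 (1.31, 0.073). In iG+A the log2 fold change was 1.49 with all 14 untreated libraries as the control.

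In the lines without Gfi1 Clic5 was not called. In iPou4f3 it had 56.4 and 73.7 normalized counts against 130 and 193, which do not overlap, with a log2 fold change of 1.28 and a 95% interval of 0.39 to 2.17 (adjusted p = 0.0964, or 0.0481 with the replicate block, under the fold threshold in both fits). In iP+A it had 149 and 90.2 against 96.9 and 116 (log2 fold change -0.13, interval -1.02 to 0.76), and in iAtoh1 141 and 57.1 against 89.6 and 58.6 (-0.30, interval -1.19 to 0.59). Both pairs of groups overlapped. By Dox level the order was iG+P, iGPA, iGfi1, iG+A, iPou4f3, iP+A and iAtoh1, in which iGfi1 and iG+A were the only neighbours whose libraries overlapped.

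Clic5 is also expressed outside the ear, for instance in endothelium. The 8 endothelial markers, Pecam1 and Cdh5 among them, were all detected in all libraries. They summed to 15159 to 17589 normalized counts without Dox and 5906 to 6513 with Dox in iG+P, where Clic5 was highest, and to 16734 to 19123 and 17226 to 29651 in iGPA. In iG+A the sums were 22373 to 22924 and 30961 to 33664, and in iGfi1 20355 to 20905 and 12324 to 13274. In iG+P 2 of 8 of these markers were down, Pecam1 by the most (log2 fold change -3.18, adjusted p = 3.46e-08), and in iGPA 1 was up, the tight junction gene Cldn5 (1.68, 0.00901), and 1 down. The sum was lower with Dox in iG+P and iGfi1 and higher in iG+A. Single markers did not all go with the sum. Pecam1 had 2469 to 3900 normalized counts in the untreated libraries and 332 to 2226 in the Dox libraries, so it was lower with Dox in every line, also in iG+A. The part of endothelial cells in the Clic5 values was not tested.

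Myo6 was higher with Dox in 6 of 7 lines and highest in iGPA. There it had 2125 and 1936 normalized counts without Dox and 9698 and 9360 with Dox, a log2 fold change of 2.23 ± 0.196 (adjusted p = 5.1e-08) and the only Myo6 value past the fold threshold. In iG+P it had 1833 and 2299 against 5066 and 5819, a log2 fold change of 1.40 (2.05e-05). In iP+A it had 1973 and 2260 against 5091 and 4598, a log2 fold change of 1.20 (1.93e-04). The groups did not overlap in these lines.

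In iG+A Myo6 had 2114 and 2869 normalized counts against 5764 and 3970 (log2 fold change 0.96, adjusted p = 7.69e-04), and in iAtoh1 3126 and 1941 against 4469 and 4494 (0.86, 0.00382). In iPou4f3 it had 2160 and 2672 against 3008 and 3340, a log2 fold change of 0.40 with an interval of -0.01 to 0.81 (0.291). In iGfi1 it was lower, at 2699 and 2693 against 2105 and 2176 (-0.33, 0.223). Each of these pairs of groups was free of overlap, but those of iPou4f3 and iGfi1 did not pass the test. The iG+P value went past the fold threshold without No Dox replicate 2 (1.57) and without Dox replicate 1 (1.5027).

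The order of Myo6 in Dox libraries was iGPA, iG+P, iG+A, iP+A, iAtoh1, iPou4f3 and iGfi1. The libraries of iGPA stood clear of iG+P, those of iG+P and iG+A and those of iG+A and iP+A overlapped, and the lower neighbours did not. Where Ptprq was highest, in iPou4f3, Myo6 was at its second lowest Dox level.

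Tprn, the taper protein, moved little. In iGPA it had 325 and 332 normalized counts without Dox and 513 and 569 with Dox, a log2 fold change of 0.72 ± 0.196 (adjusted p = 0.00604). In iG+A it had 239 and 329 against 419 and 576 (0.81, 0.00311), and in iG+P 306 and 333 against 533 and 494 (0.68, 0.011). These 3 lines, which carry Gfi1 with another factor, had non-overlapping groups and adjusted p-values under 0.05, at sizes below the fold threshold.

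In the remaining lines Tprn had adjusted p-values above 0.05. It had 437 and 364 against 284 and 287 in iAtoh1, a log2 fold change of -0.48 (adjusted p = 0.0858, or 0.0355 with the replicate block, under the fold threshold in both fits). It had 275 and 270.2 against 356 and 313 in iGfi1 (0.29, 0.291), 356 and 294 against 273 and 324 in iPou4f3 (-0.12, 0.806), and 329 and 487 against 313 and 360.4 in iP+A (-0.25, 0.382). The iAtoh1 and iGfi1 groups did not overlap, and those of iPou4f3 and iP+A did. In Dox level iGPA, iG+P and iG+A overlapped each with the next, as did iP+A, iGfi1, iPou4f3 and iAtoh1, and the libraries of iG+A lay above those of iP+A.

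Rdx, a member of the ezrin, radixin and moesin family, was the most abundant and the most even of the members. Its levels ran from 15165 to 20944 normalized counts, with a median of 17693, in the untreated libraries and from 15187 to 20817, with a median of 17451, in the Dox libraries. The log2 fold changes ran from -0.26 in iG+P to 0.20 in iG+A, with an SE of 0.124, and the lowest adjusted p was 0.124. The 95% intervals over the 7 lines lay between -0.52 and 0.46, so changes of the size seen for Clic5 and Myo6 in iGPA lie outside them. The Dox and No Dox groups overlapped in iAtoh1, iPou4f3, iG+A and iGPA, and the only Dox neighbours that did not overlap in order of level were iGPA and iPou4f3.

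The lines that carried Pou4f3 were next compared by the difference of their Dox effects, since a call in one line and none in another is no test of a difference. Between iGPA and iPou4f3, 10.7% of all genes differed past the threshold in either direction. Of these, 1162 had the higher Dox effect in iGPA and 639 the lower. Of 4 partners 2 differed, both with the higher effect in iGPA. The direction of Ptprq followed from how it was chosen, so a sign opposite to it is no result. Ptprq gave a difference of -5.38 ± 0.632 on the log2 scale, iGPA minus iPou4f3, while Myo6 gave 1.83 ± 0.277 (adjusted p = 1.02e-04) and Clic5 1.83 ± 0.600 (0.0308). Tprn gave 0.84 (0.0327, under the fold threshold) and Rdx 0.15 (0.567).

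The difference of Clic5 between iGPA and iPou4f3 depended on single libraries. Its adjusted p was 0.0559 after quantile normalization (difference 1.52), and it was 0.100 without iPou4f3 No Dox replicate 2, 0.124 without iPou4f3 Dox replicate 1, 0.168 without iGPA No Dox replicate 2, 0.0729 without iGPA Dox replicate 1 and 0.0669 without iGPA Dox replicate 2, with differences between 1.28 and 1.85 in these fits. That of Myo6 stayed past the threshold in all alternatives run, at 1.59 to 1.99.

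For Atoh1 beside Pou4f3 (iP+A minus iPou4f3, in which 1.61% of all genes differed) Ptprq gave -2.67, and 0 of 4 partners differed past the threshold. Myo6 gave 0.80 and Clic5 -1.41 (interval -2.67 to -0.15), with adjusted p-values of 0.152 and 0.268 and unadjusted p-values under 0.05. For Gfi1 beside Pou4f3 (iG+P minus iPou4f3, 7.63%) Ptprq gave -0.36. Here too 0 of 4 partners were past the threshold, though Myo6 (1.00, adjusted p = 0.017), Clic5 (1.43, 0.111) and Tprn (0.80, 0.0522, or 0.0199 with the replicate block) all had unadjusted p-values under 0.05. With all 14 untreated libraries as the control the Clic5 value was 2.39 (5.84e-04).

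For Gfi1 beside Pou4f3 and Atoh1 (iGPA minus iP+A, 7.6%) Ptprq gave -2.70 and Clic5 3.24 ± 0.600 (adjusted p = 0.0011), the 1 partner of 4 past the threshold. Myo6 gave 1.04 (0.014) and Tprn 0.97 (0.021), both under the fold threshold. For Atoh1 beside Gfi1 and Pou4f3 (iGPA minus iG+P, 5.9%) Ptprq gave -5.01 and 0 of 4 partners were past the threshold, of which Myo6 (0.83, 0.0496, or 0.0504 with the replicate block) and Rdx (0.37, 0.169) had unadjusted p-values under 0.05. Clic5 gave 0.40 with an interval of -0.86 to 1.65. These comparisons share libraries with each other, so they are not independent.

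**Figure D4:**
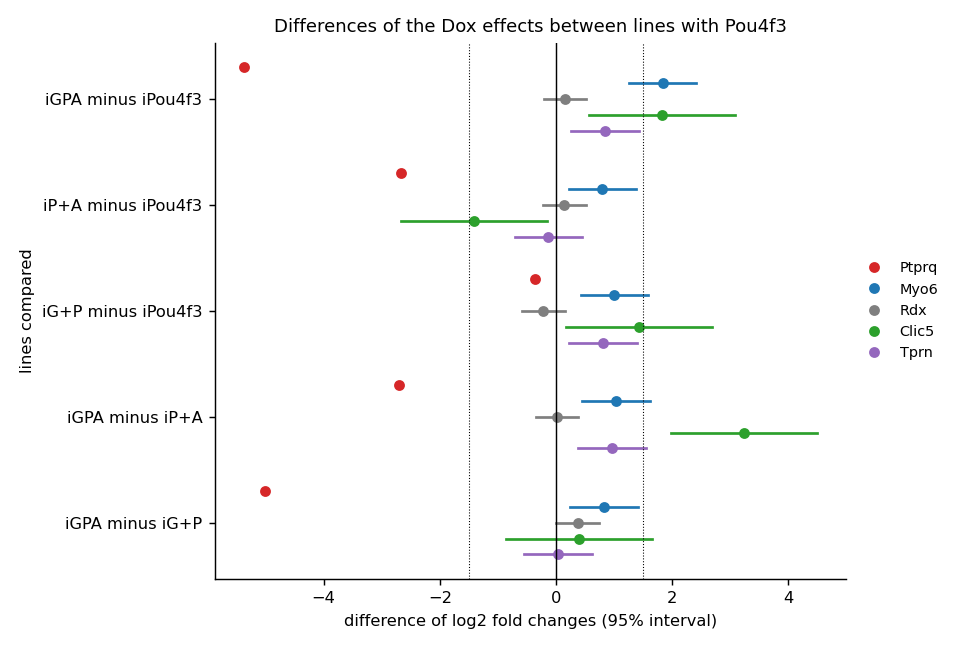
Differences of the Dox effects (log2 scale) between lines that carry Pou4f3, for each member (points), with 95% intervals for the 4 partners (lines) and dotted lines at 1.5 in both directions. Ptprq lies at -5.38, -2.70 and -5.01 in the comparisons with iGPA, whereas Myo6 and Clic5 lie above 0 in each of them.

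Over the 7 lines the log2 fold changes of the partners had Pearson correlations with those of Ptprq of 0.02 for Myo6, 0.07 for Clic5, -0.09 for Tprn and -0.35 for Rdx. These are descriptions over 7 points that share their libraries' preparation. The 10 genes most like Ptprq by this measure, of the 4657 that moved by 1.5 or more on the log2 scale in some line, were Khdrbs2 (0.945), Papolb, Enpep, Plcb1, Dio3os, Rimkla, Sema4f, Gpr165, Mab21l2 and Gabra4 (0.894). None of them is in the lists of bundle genes used here, which hold 37 of 19421 genes, so a count of 0 says little. Gabra4, a GABA receptor subunit, had log2 fold changes of 3.57 in iPou4f3, 3.02 in iP+A, 2.52 in iG+P and 0.09 in iGPA, and Khdrbs2, an RNA-binding protein, had 2.38, 0.92, 1.41 and -0.80.

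Some of these genes differed from Ptprq in the size and sign of their values. Papolb and Mab21l2 had their highest log2 fold changes at 0.39 and -0.02, with lower values in the other lines, and Dio3os had 1.23 in iPou4f3, 1.68 in iG+P and -4.74 in iGPA. Besides Ptprq, which was not tested, 7 genes were called up in iPou4f3, iG+P and iP+A and not in iGPA. Of these, 3 (Cartpt, Ccdc177 and Crhbp) passed the filter on low values only with the Dox libraries, as did Gpr165 among the genes most like Ptprq. The others included Bdnf, Gabra4 and Tmem169, and all these names were given after their values were seen. Bdnf, a neurotrophin, lay just under the fold threshold in iGPA at 1.45.

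Other genes of the hair bundle were counted for comparison from lists by place in the bundle. Of 36 tested, 5 (Grxcr1, Grxcr2, Elmod1, Ush1g and Strc) passed the filter on low values only with the Dox libraries and are left out of the counts. Of the other 31, 6 were up in iPou4f3 (1.21% of all genes kept by untreated libraries alone were), 13 in iGPA (7.56%), 14 in iG+P (4.42%), 5 in iP+A (4.19%), 5 in iG+A (6.34%), 3 in iGfi1 (1.79%) and 0 in iAtoh1 (2.64%). The counts for single lists below are set against the same shares. In all lines 1 of the 31 was down, the tip myosin gene Myo15 in iG+A (log2 fold change -1.54, adjusted p = 2.42e-04). Their median log2 fold change was 0.21 in iPou4f3, 0.75 in iGPA and 0.77 in iG+P. The 6 that were up in iPou4f3 (Ripor2, Pcdh15, Ush1c, Myo3b, Loxhd1 and Tomt) were also called up in iGPA. Of the 31, 3 were up in iG+P or iP+A and not in iGPA. Espnl, an espin-like gene, had log2 fold changes of 0.42 in iGPA, 2.46 in iG+P and 1.89 in iP+A. Myo15 had 3.05 in iG+P and 1.38 in iGPA, and the channel gene Tmc1 1.69 and 0.74. In iPou4f3 these had 0.15, 0.79 and 0.02 and were not called.

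Of 8 counted genes of the ankle links, taper and rootlet, the neighbours of the members in the bundle, 1 was up in iPou4f3, 2 in iG+P, 3 in iGPA and 0 in the other lines. Grxcr2, which in HCs is needed for taperin to stay at the base, had at most 2.04 normalized counts in any untreated library and 22.2 and 24.5 in iPou4f3, 16.3 and 13.5 in iP+A, 32.8 and 60.6 in iGPA and 48.1 and 75.9 in iG+P with Dox. The Dox libraries of these lines lay above every untreated library, but the gene was kept for its Dox values, so no test is given.

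Ripor2, a ring-forming protein of the taper, was up in iPou4f3 (2.06), iG+P (2.39) and iGPA (2.67). Elmod1, whose product acts on Arf GTPases at the apical surface and which was also kept only with Dox libraries, had 0 and 3.01 normalized counts without Dox and 9.21 and 11.9 with Dox in iG+P. Over all lines Elmod1 ran from 0 to 8.73 in untreated and from 0 to 23.6 in Dox libraries, so its highest Dox library was not of iG+P. Ripor2, Ush1c, Myo3b, Espnl, Tmc1, Elmod1, Grxcr1 and Strc, and Otof among the HC markers, were named after their values were seen.

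**Figure D5:**
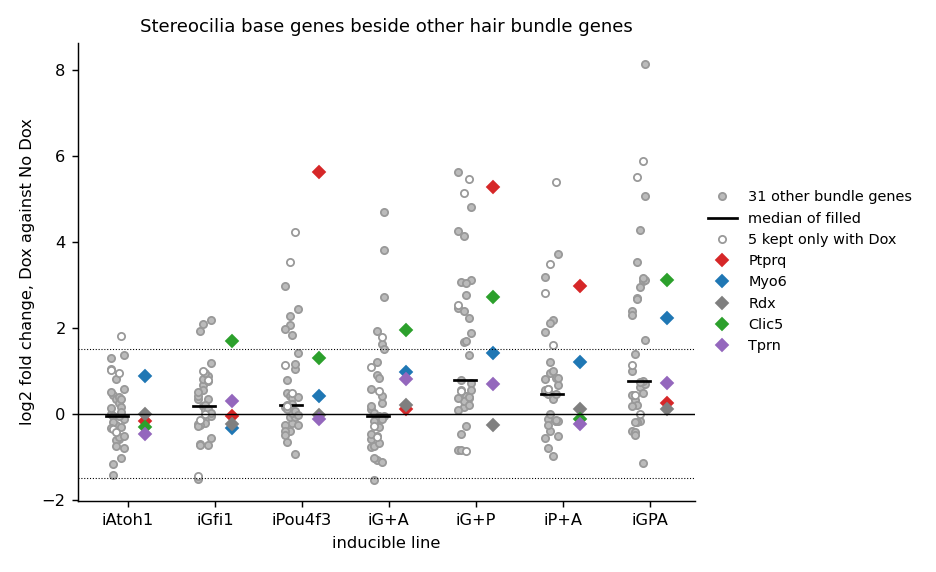
Log2 fold changes, Dox against No Dox, of other hair bundle genes, 31 kept by untreated libraries alone (grey points, with their median as a bar) and 5 kept only with Dox libraries (open points), and of the 5 members (diamonds) in each line, with dotted lines at 1.5 in both directions. Ptprq lies above the grey and open points in iPou4f3 and near 0 in iGPA, where the grey points have a median of 0.75.

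Of the tip link and Usher genes, 2 of 5 counted were up in iPou4f3, 3 in each of iG+A, iG+P and iGPA, 2 in iGfi1, 1 in iP+A and 0 in iAtoh1. Ush1g, which anchors the upper end of the tip link, had 0.874 and 0.983 normalized counts without Dox and 112 and 113 with Dox in iGPA, with no test since it was kept for its Dox values. Pcdh15, the lower part of the link, was up in iGPA by 5.07 on the log2 scale (adjusted p = 3.29e-09). Of 13 shaft and tip genes counted, 6 were up in iG+P, 4 in iGPA, 3 in iP+A, 2 in iPou4f3, 1 in iGfi1 and in iG+A and 0 in iAtoh1, with Loxhd1 at 4.25 in iG+P (5.15e-05) and the actin bundler Espn at 3.10 in iGPA (1.23e-06). Of 5 genes of the transduction channel, 3 were up in iGPA and in iG+P, 1 in each of iPou4f3, iG+A and iP+A and 0 in the rest, with the channel subunit Tmie at 3.50 and 1.97 normalized counts without Dox and 975 and 1086 with Dox in iGPA (1.35e-10) and Tomt, which brings the channel to the bundle, up by 5.62 on the log2 scale in iG+P (1.97e-07).

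Of 12 close homologs of the members, 4 were called in at least 1 line, in either direction, as were 25% of all genes. Ptpro, a receptor-type phosphatase of the same class as Ptprq, was up in iGfi1, iG+A (log2 fold change 3.11, adjusted p = 1.66e-06), iP+A and iGPA and not in iAtoh1 (0.98, 0.0501), iPou4f3 (0.94, 0.147) or iG+P (-0.15, 0.777). Differences of Ptpro between lines were not tested. Ptprb was down in iG+P (-2.24, 8.92e-05). Ezr, the family member of Rdx in most epithelia, was down in iGPA (-1.51, 1.57e-05), with 7750 and 8650 normalized counts without and 2957 and 2812 with Dox, and Clic6 was down in iAtoh1 (-2.04, 0.00279). Ezr and Clic6 were named after their values were seen. Of 13 known binding partners of the proteins, Dab2, the adaptor by which Myo6 takes part in endocytosis, was the only one called, down in iGfi1, iG+A, iG+P and iGPA, by 3.45 at most (log2 fold change -3.45 in iGPA, 5.41e-07).

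Markers of other cells of the EB also differed between Dox and No Dox libraries. The 11 visceral endoderm markers summed to 1416 to 7554 normalized counts without Dox and 351 to 1440 with Dox, 1 to 5 of 10 tested were down in every line, with Ttr lowest in iG+A (log2 fold change -4.03, adjusted p = 1.17e-04), and Apoa2, at most 3.92 in any untreated library, was at 0 in 6 of 14 untreated and 9 of 14 Dox libraries. The 6 primitive blood markers summed to 66157 to 498114 and 11973 to 367588, with 6 of 6 down in iAtoh1 and in iP+A, 5 in iGPA (Hbb-y by the most, -5.27, 2.75e-05) and in iG+A, 2 in iG+P and 0 in iPou4f3 and iGfi1. Of 7 pluripotency markers 4 were down in iP+A, 3 in iGPA and in iG+A, where Dppa5a had -3.56 (0.00232), 1 in iG+P and 0 in the other lines. Of 8 neuronal markers 8 were up in iP+A, with Tubb3 at 5.40 (4.48e-09), 7 in iGPA, with Dcx at 5.49 (1.82e-08), and 2 in iPou4f3 and in iG+P, 4 in iAtoh1 and in iG+A and 0 in iGfi1. The part of these cells in the values of the members was not tested.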

How the data were processed

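RNA-seq was done on 28 libraries, and all came with a label for line, treatment and replicate. The authors trimmed reads with cutadapt, used Kallisto for pseudo-alignment against the knownGene transcripts (UCSC, mm9), took gene totals with tximport and scaled these with DESeq2. The deposited values were taken as log2 of the authors' normalized count plus 1. No source used here states this transform. It was inferred from the range (highest 18.5) and the steps of the low values, and all levels and ratios in normalized counts rest on it. Whole reads were not recovered, since 72.4% to 79.6% of the low normalized counts (20 or fewer) fell no further than 0.05 from a multiple of the library's step, so no count test was run. Libraries of 30.3 to 48.0 M estimated reads leave genes near 10 counts, such as untreated Ptprq, with much counting error. With 2 libraries per group, p-values measure the spread between clones. The table names genes by Entrez ID, and RefSeq gave names to 19314 of 19421.

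The 16837 genes that reached 10 normalized counts in 2 or more libraries were fitted in 14 groups with limma 3.58.1 (trend, 14 residual degrees of freedom) in R 4.3.3, with Benjamini-Hochberg adjustment within each contrast. List genes kept only through Dox libraries were left out of the list counts, a choice made after seeing the data. Dox was compared with No Dox in each line and the Dox effects between lines. The scripts were tested on simulated data. Positions, 250-base promoters and primer matches were read from NCBIM37 and GENCODE M1. Levels and figures were made with Python 3.11.15 and matplotlib 3.10.9.

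Members and gene lists were chosen with earlier results of these data known. Named genes are the members, per list the 2 largest rises and the largest fall past the threshold, the 10 genes most like Ptprq and the transgenes, besides those said to be named after their values were seen. Some genes that count in the totals are not reported here by name. Same-numbered Dox and No Dox libraries of a line deviated together (correlations across genes of 0.23 in iPou4f3, 0.10 in iG+P, 0.25 in iP+A, 0.15 in iGPA, 0.16 in iG+A, 0.13 in iGfi1 and 0.24 in iAtoh1), so the numbers were taken to pair them, and a fit with a replicate block was run. Other alternatives were quantile or 75th percentile scaling, pseudocounts of 0.5 and 5, a filter at 50 normalized counts or none, fits of the compared groups alone, the 14 untreated libraries pooled as the control, limma without trend, a fold threshold of 1 (log2), and leaving out 1 library at a time.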

Additional observations from a re-analysis of the deposited data

Results flagged for a closer look

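The Dox effect of Myo6 differed past the threshold between iGPA and iPou4f3, and that of Clic5 between iGPA and iPou4f3 and between iGPA and iP+A. In these differences the effect was higher in iGPA, where that of Ptprq, a gene chosen for its low value there, was lower. The difference of log2 fold changes between iGPA and iPou4f3 was 1.83 for Myo6 and 1.83 for Clic5, and that between iGPA and iP+A was 3.24 for Clic5, each past the threshold in limma's test of the difference itself. The Clic5 difference between iGPA and iPou4f3 was under the threshold after quantile normalization and without 5 of the single libraries, with the values given above.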

How the results depend on the processing

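The number of partners up with Dox moved under few alternatives. With all 14 untreated libraries as the control it was 0 in iG+A, and with a fold threshold of 1 (log2) it was 2 in iG+P and 1 in iP+A. Leaving out single libraries gave 0 to 1 in iGfi1 and 1 to 2 in iG+P. A filter on untreated libraries alone, chosen after seeing the data, left these counts as they were. The count of partners up in iPou4f3 and not in iGPA was 0 in every alternative run. The paired fit with the replicate block changed no call by adjusted p and fold together. Under the fold threshold, it brought the adjusted p under 0.05 for Clic5 in iPou4f3 (0.0481), Tprn in iAtoh1 (0.0355) and the Tprn difference between iG+P and iPou4f3 (0.0199), and over it for the Myo6 difference between iGPA and iG+P (0.0504). Quantile normalization and the 75th percentile moved the median of all genes by at most 0.07 in size.

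Only values near 0 that were not called changed sign. After quantile normalization Rdx had 0.038 in iAtoh1 and Tprn a difference of -0.15 between iGPA and iG+P. With all 14 untreated libraries as the control Rdx had 0.090 in iAtoh1, Clic5 0.35 and Tprn 0.032 in iP+A, and the differences were 0.18 for Tprn between iP+A and iPou4f3, -0.020 for Rdx between iGPA and iP+A and -0.43 for Clic5 between iGPA and iG+P. Leaving out single libraries gave Clic5 -0.95 to 0.34 in iAtoh1 and -0.49 to 0.23 in iP+A, Rdx -0.12 to 0.091 in iAtoh1 and -0.17 to 0.094 in iPou4f3, and Tprn -0.53 to 0.031 in iP+A and -0.26 to 0.015 in iPou4f3. The differences were -0.15 to 0.94 for Clic5 and -0.043 to 0.11 for Tprn between iGPA and iG+P, -0.094 to 0.12 for Rdx between iGPA and iP+A and -0.41 to 0.15 for Tprn between iP+A and iPou4f3. The cause was not tested. Over all alternatives Ptprq ran from 5.16 to 5.87 in iPou4f3, 4.81 to 5.47 in iG+P, 2.43 to 3.49 in iP+A and -0.27 to 0.77 in iGPA.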
